A study of Mus musculus with 6 samples.

Results

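The kinesin and centromere protein genes were examined in 6 single-cell RNA libraries of the mouse 4T1 model, a mammary carcinoma line used for triple-negative breast cancer. The members were all gene names that begin with Kif and a digit or with Cenp and a letter. There were 60 of them among the 28649 gene names of the series, 39 Kif names and 21 Cenp names, and 59 had a row in all 6 libraries. The design set 3 libraries labelled shPgk1, from cells given a lentiviral short hairpin RNA against Pgk1, against 3 libraries labelled shNC, from cells given a non-targeting hairpin. Pgk1 encodes phosphoglycerate kinase, an enzyme of glycolysis. In both groups the labels describe 48 h of transduction and then 7 days of selection in puromycin at 2 µg/mL, so the hairpin and the selection concern 4T1 cells. The values are counts of unique molecular identifiers (UMIs, tags that mark single captured RNA molecules) per gene and cell barcode.

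Kinesins are motor proteins that walk along microtubules or take them apart. Some build the mitotic spindle, move chromosomes or complete cytokinesis, and others carry vesicles, mitochondria or ciliary cargo in cells that do not divide. Most Cenp proteins sit at the centromere, the chromosome site where the kinetochore is assembled and the spindle attaches, and many mitotic genes of both families are transcribed mainly late in the cell cycle. Not every name fits its family. Kif1bp encodes a protein that binds a kinesin, Kif16bos is an antisense transcript, Cenpj works at centrioles, and Cenpe is a kinetochore motor that belongs to the kinesins by its structure. Exons of 22 of the 60 members overlap another gene in the GENCODE M21 annotation, most often on the opposite strand. No source used here says whether the counting used strand, so the counts of these members may include reads of the neighbour.

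Total counts were 111982862 to 128933960 UMIs in the shPgk1 libraries and 78778073 to 113157507 in the shNC libraries, and 41434 of 42902 barcodes were kept. Although the labels name 4T1 cells alone, the libraries held several cell types. Barcodes were marked as epithelial (Epcam, Krt8), macrophage (Csf1r, Cd68), T cell (Cd3e), fibroblast (Col1a2) or endothelial (Cdh5), which gave 15106, 9668, 1576, 1856 and 377 barcodes. A further 11897 were unmarked and 954 carried markers of several lineages. Further markers bore the names out. Krt18, Krt19, Krt7 and Cldn4 summed to 3011 to 3400 CPM (the usual scaled count, a gene's share of the summed UMIs) in epithelial barcodes of shPgk1 libraries and 3027 to 3079 CPM in those of shNC libraries, against 241 to 310 CPM and 164 to 238 CPM in macrophage barcodes. Macrophage barcodes therefore held some epithelial RNA, at a median of 7.93% of the level in epithelial barcodes. Epithelial barcodes made up 40.4% to 46.6% of kept barcodes in the shPgk1 libraries and 26.0% to 32.2% in the shNC libraries. Barcode names are running numbers, so 11389 of 26570 names occur in more than 1 library, but no barcode had the same counts in more than 1 library. The targeted gene did not separate the groups. Pgk1 had 324, 324 and 349 CPM in the shPgk1 libraries, against 351, 341 and 313 CPM in the shNC libraries. In epithelial barcodes its log2 fold was 0.33 ± 0.14 (SE, adjusted p = 0.126, edgeR), so the groups are called by their labels throughout.

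Promoter sequences are shown first for 6 members that span the range found below, because the promoters of many late cell cycle genes hold a CHR element (cell cycle genes homology region, TTTGAA or TTCGAA) and CCAAT boxes. Each sequence is from RefSeq on GRCm38.p6 and runs 5′ to 3′ on the gene's strand, with 150 bases before and 30 bases after the annotated start. Capitals mark every match to the CHR element or the CCAAT box on either strand, so the reverse complement of each is marked too. Kif20b, Cenpf, Kif11 and Cenpa are members linked to proliferation markers below, Kif24 lies at the limit, and Kif13a is among the lowest.
Kif20b, chr19:34922208-34922387, plus strand: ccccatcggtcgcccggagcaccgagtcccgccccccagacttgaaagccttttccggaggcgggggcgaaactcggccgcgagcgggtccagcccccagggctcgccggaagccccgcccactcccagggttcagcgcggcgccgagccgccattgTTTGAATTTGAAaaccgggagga
Cenpf, chr1:189688057-189688236, minus strand: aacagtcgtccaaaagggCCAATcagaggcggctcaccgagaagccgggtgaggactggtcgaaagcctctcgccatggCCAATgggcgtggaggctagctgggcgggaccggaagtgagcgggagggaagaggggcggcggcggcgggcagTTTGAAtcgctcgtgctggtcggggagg
Kif11, chr19:37376232-37376411, plus strand: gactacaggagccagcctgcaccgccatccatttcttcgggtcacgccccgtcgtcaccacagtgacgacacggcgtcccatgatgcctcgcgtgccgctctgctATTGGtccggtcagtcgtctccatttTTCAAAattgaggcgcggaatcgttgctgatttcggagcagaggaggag
Cenpa, chr5:30666736-30666915, plus strand: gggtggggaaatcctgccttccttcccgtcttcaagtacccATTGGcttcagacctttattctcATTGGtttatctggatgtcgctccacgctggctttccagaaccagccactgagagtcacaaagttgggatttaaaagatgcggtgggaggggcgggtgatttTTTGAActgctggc
Kif24, chr4:41464819-41464998, minus strand: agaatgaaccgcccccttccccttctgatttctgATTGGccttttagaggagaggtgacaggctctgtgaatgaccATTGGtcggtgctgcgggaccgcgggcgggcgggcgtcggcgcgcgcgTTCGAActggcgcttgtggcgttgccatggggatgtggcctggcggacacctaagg
Kif13a, chr13:46929689-46929868, minus strand: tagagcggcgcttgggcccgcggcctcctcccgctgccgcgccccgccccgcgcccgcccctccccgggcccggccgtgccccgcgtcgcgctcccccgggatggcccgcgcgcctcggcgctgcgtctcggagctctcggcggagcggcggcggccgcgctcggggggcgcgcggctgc

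In epithelial barcodes the members split into a group that followed the proliferation markers Mki67 and Top2a and a group that did not. Barcodes with at least 2 UMIs of Mki67 and Top2a together, called cycling here, were set against barcodes with 0 UMIs of both, and a member was called linked where its CPM was at least doubled (log2 ratio of at least 1, with 0.5 counts added) in all 6 libraries. Of 56 members with a mean of at least 10 counts per library, 25 were linked, 11 of 35 Kif names and 14 of 21 Cenp names. Over all 15627 genes measured the same way, 1.81% were linked. The remaining 4 members, Kif6, Kif12, Kif16bos and Kif19a, had too few counts to be measured. Cycling barcodes were deeper, with a median of 24736.5 UMIs against 9445.5 UMIs in barcodes at 0.

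The 8 members with the largest median ratio were Kif20b, Cenpf, Cenpe, Kif11, Kif4, Kif2c, Kif20a and Kif14, at log2 ratios of 3.65, 3.48, 3.29, 3.09, 3.08, 2.96, 2.96 and 2.89. Kif20b acts in cytokinesis. It had 11.6, 10.3 and 11.97 CPM in cycling barcodes of the shPgk1 libraries and 13.6, 18.04 and 11.1 CPM in those of the shNC libraries. In barcodes at 0 it had 0.928, 1.03 and 0.756 CPM in the shPgk1 libraries and 1.02, 1.04 and 1.08 CPM in the shNC libraries. The levels in cycling barcodes lay above those in barcodes at 0 in every library. Cenpf encodes a large kinetochore protein, and it had 41.4 to 65.8 CPM in cycling barcodes, against 3.35 to 5.69 CPM in barcodes at 0. Kif11 encodes the motor that pushes spindle poles apart, Kif4 and Kif22 encode motors that bind chromosomes, Kif2c a depolymerase at kinetochores, and Kif14, Kif20a and Kif23 act in the central spindle and cytokinesis. The other linked kinesins were Kif15, Kif18a and Kif18b.

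The linked Cenp genes were Cenpa, the histone variant that defines the centromere, the motor gene Cenpe, Cenpf, and the inner kinetochore genes Cenph, Cenpi, Cenpk, Cenpl, Cenpm, Cenpn, Cenpp, Cenpq, Cenps, Cenpu and Cenpw. Protein complexes were divided by this measure. Cenpt, Cenpw, Cenps and Cenpx encode histone-fold partners of 1 complex, and of these Cenpw and Cenps were linked, at 1.49 and 1.34, whereas Cenpt and Cenpx were not, at 0.69 and 0.43. Cenpw had 106 to 132 CPM in cycling barcodes and 36.0 to 53.7 CPM in barcodes at 0. Cenpx had 46.0 to 53.1 CPM in cycling barcodes and 34.5 to 39.5 CPM in barcodes at 0, a smaller difference that also did not overlap. Cenpo was not linked, at 0.91, whereas its complex partners Cenpp, Cenpq and Cenpu were, at 2.07, 2.15 and 2.26. At equal depth Cenpo was at 1.33, from only 12 counts in cycling barcodes, and these partners at 2.31, 1.89 and 1.74. Cenpc1, which joins the centromere to the outer kinetochore, and Cenpb, which binds centromeric repeat DNA, were not linked, at 0.50 and 0.13. Cenpv and Cenpj were also below the limit. At equal depth Cenpc1 and Cenpb were at 0.98 and 0.09. Cenpv and Cenpj were then at 0.28 and 1.32, the last from 13 counts in cycling barcodes.

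The limit cut through a continuous range. Just inside it were Cenpw, Cenps and Cenpl, the last at a median log2 ratio of 1.31 and a lowest library of 1.10. Just outside were Kif24, whose median was 1.02 but whose lowest library was at 0.44, and Cenpo and Cenpt. At an equal depth of 3000 UMIs per barcode the median ratios of both sides mixed. Cenpw, Cenps and Cenpl were then at 1.14, 1.48 and 2.18. Kif24, Cenpo and Cenpt were at 1.62, 1.33 and 1.22, from 36, 12 and 58 counts in cycling barcodes. Kif24 encodes a kinesin of centrioles that restrains cilium growth. The lowest measured members were Kif27, Kif26b, Kif13a and Kif9, at −0.49, −0.34, −0.32 and −0.31. Kif13a, a vesicle motor, was lower in cycling barcodes of all 6 libraries, with 11.1 to 22.2 CPM against 13.9 to 25.2 CPM in barcodes at 0. At an equal depth of 3000 UMIs per barcode the ratio of Kif13a was −0.01, from 49 counts in cycling barcodes of all libraries. Ratios of 1.55 for Kif27, 1.33 for Kif26b and 1.82 for Kif9 rested on 8, 10 and 10 such counts. The 0.5 counts added raise ratios from so few counts, and Kif12, with 0 counts in both kinds of barcode, came to 3.83. The ratios of Kif27, Kif26b and Kif9 therefore show no direction at this depth. The cargo motors Kif5b, Kif3a and Kif1b lay between −0.16 and 0.22.

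**Figure D1:**
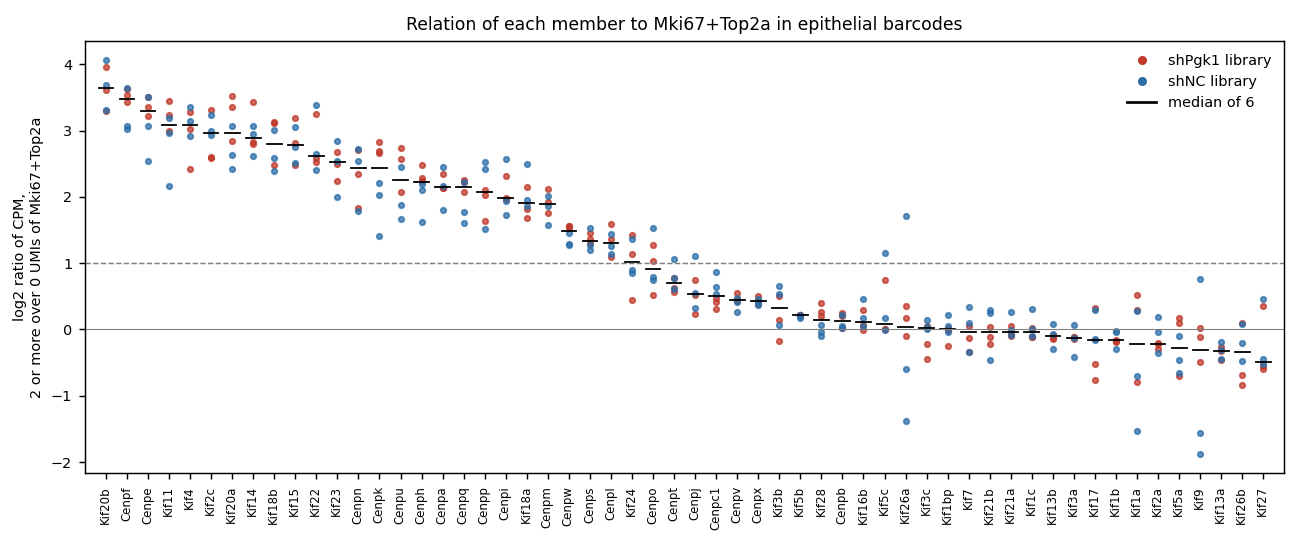
Log2 ratio of CPM in cycling over non-cycling epithelial barcodes (y axis) for each measured member (x axis), with 1 point per library (red for shPgk1, blue for shNC), a bar at the median of the 6 and a dashed line at the limit of 1. The 25 linked members on the left have all points above the line, and the points of both groups mix.

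Members linked in the other lineages were all among these 25. In macrophage barcodes 22 of 54 measured members were linked (background 1.52%), in T cell barcodes 21 of 46 (background 2.22%), in fibroblast barcodes 11 of 39 (background 0.851%) and in endothelial barcodes 2 of 20 (background 0.296%). Of the epithelial-linked members, 20 were linked in epithelial, macrophage and T cell barcodes alike. All 25 epithelial-linked members had a ratio above 0 in every library in macrophages and in T cells, as had 18 of 18 measured in fibroblasts and 5 of 7 in endothelial barcodes. The share of all genes with a ratio above 0 in every library was not counted. Kif24, outside the limit in epithelial barcodes, was at 1.53 in T cells and 0.50 in macrophages. Krt18, Krt19, Krt7 and Cldn4 summed to 155 to 299 CPM in cycling macrophages and 170 to 309 CPM in macrophages at 0, so free epithelial RNA was about as high in both. The fibroblast and endothelial counts rest on as few as 22 and 6 cycling barcodes in a library.

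The promoters of linked members more often held the motifs shown above. Within 250 bases before to 50 bases after the first annotated start, TTTGAA or TTCGAA was found in 15 of the 24 linked members with a sequence (62.5%), against 3 of 25 members that were not linked (12%) and 19.4% of the 27025 genes with a sequence. CCAAT was found in 18 of the 24 (75%), against 8 of 25 (32%) and 37.9% of all genes. Both motifs occurred together in 12 of the 24 (50%), against 3 of 25 (12%) and 7.70% of all genes. The 3 members that were not linked but held TTTGAA or TTCGAA were Kif24, Kif26b and Kif27. The match of Kif24 is the TTCGAA 26 bases before the start, and Kif27 had 3 matches although it was not linked. Cenpe, among the strongest linked members, had no TTTGAA or TTCGAA in this window. A match describes letters only and does not show that a factor binds there.

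Within cycling barcodes the linked members divided again, by the part of the cycle. Cycling barcodes were ranked by the share of G2/M genes (Ccnb1, Ccnb2, Cdc20, Plk1, Aurka) among their UMIs of these and S phase genes (Mcm5, Mcm6, Ccne2, Cdc6, Gins2, Pcna), and the third with the highest share was set against the third with the lowest. In epithelial barcodes 11 of the 25 linked members were at least doubled on the G2/M side in all 6 libraries (background 0.801%), and none of the 25 measured members that were not linked. Cenpa stood highest at a median log2 ratio of 3.32, with a median of 414 CPM on the G2/M side against 43.3 CPM on the S side. Cenpf (3.14), Cenpe (3.02), Kif2c (2.89), Kif20a, Kif22, Kif18b, Kif14, Kif20b, Kif23 and Kif18a followed. Kif4 and Kif11 had medians of 1.80 and 1.53 but fell short of the limit in 1 or more libraries.

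None of the linked members was halved on the G2/M side in all 6 libraries (background 0.19%). Cenps and Cenph came nearest, at −0.74 and −0.75, and both were below 0 in all 6 libraries. Cenph had a median of 15.3 CPM on the G2/M side and 24.0 CPM on the S side. Cenpk, a partner of Cenph in the inner kinetochore, was at −0.52 with libraries on both sides of 0. The linked inner kinetochore genes Cenpm, Cenpp and Cenpu also lay near 0, between −0.04 and 0.27, although Cenpp was at 1.05 in macrophages. Other linked inner kinetochore genes were higher on the G2/M side. Cenpl, Cenpw and Cenpn were at 1.39, 0.87 and 0.72 and above 0 in all 6 libraries. Cenpi and Cenpq were at 0.62 and 0.46, with libraries on both sides of 0. In macrophages 6 members leaned to G2/M (background 0.438%), namely Cenpf, Cenpe, Cenpa, Kif20a, Kif23 and Kif2c, and all 6 did so in epithelial barcodes too. None leaned to S (background 0.0952%). In epithelial barcodes the S side was deeper, at a median of 29754 to 41660 UMIs against 18382.5 to 32508 UMIs on the G2/M side. The part of depth was not tested.

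**Figure D2:**
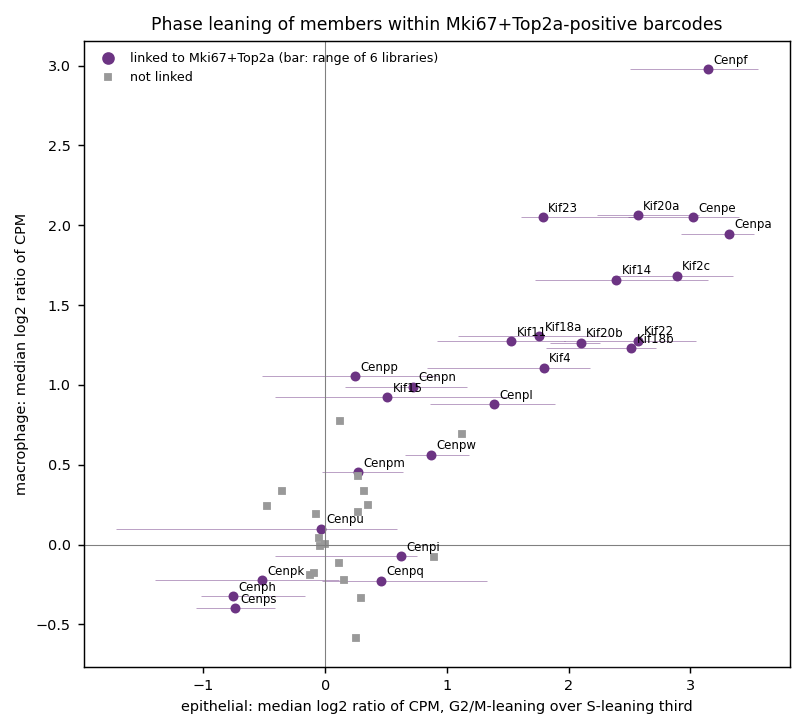
Median log2 ratio of CPM on the G2/M side over the S side of cycling barcodes, in epithelial (x axis) and macrophage (y axis) barcodes. Purple points are linked members, with a bar for the range of the 6 libraries in epithelial barcodes, and grey squares are members that were not linked. Cenpa, Cenpe and Cenpf lie at the upper right, and Cenph, Cenps and Cenpk below 0 on both axes.

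Across lineages the linked members were highest in T cells. Their summed level was 664, 554 and 510 CPM in T cells of the shPgk1 libraries and 604, 616 and 603 CPM in those of the shNC libraries. Epithelial barcodes had 349 to 401 CPM over the 6 libraries, macrophages 166 to 231 CPM, fibroblasts 132 to 189 CPM, and endothelial barcodes 99.3 to 290 CPM. T cells lay above all other lineages and epithelial barcodes above the remaining ones, whereas the ranges of macrophages, fibroblasts and endothelial barcodes overlapped. Each lineage was tested against the mean of the other 4 with library as a term, and a member was called at an adjusted p under 0.05 and a log2 fold of at least 1. Of 54 members tested, 24 were called for T cells (background 13.4%). They were 20 linked members, with Kif5c, Kif13b, Kif21b and Kif24.

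The 4 members with the largest T cell folds were Kif15, Kif11, Kif21b and Cenpk. Kif15 is a motor that helps hold spindle poles apart. It had 28.5, 29.1 and 21.5 CPM in T cells of the shPgk1 libraries and 26.5, 28.7 and 20.8 CPM in those of the shNC libraries, against 5.75 to 10.1 CPM in epithelial barcodes and 3.00 to 5.95 CPM in macrophages. T cells lay above both in every library, and the log2 fold was 2.26 ± 0.12 (SE, edgeR adjusted p = 9.8e-18). Kif11 had a fold of 2.09 ± 0.13 and Cenpk of 2.04 ± 0.16. Kif21b, a slow motor that limits microtubule growth, does not follow proliferation markers. It had 23.5 to 30.5 CPM in T cells, 6.98 to 10.9 CPM in macrophages and 1.23 to 3.06 CPM in epithelial barcodes, a log2 fold of 2.07 ± 0.11 (edgeR adjusted p = 3.92e-18). With all barcodes that had a UMI of Mki67 or Top2a left out, 5 of the 20 linked members were still called for T cells and 13 were still tested. Kif21b and Kif13b kept their call at log2 folds of 2.23 and 1.90.

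The other lineages were called for a few members each, most of them outside the linked group. Kif26a and Kif26b, related kinesins that signal and have lost motor activity, were divided between stromal lineages. Kif26a had 53.8, 66.8 and 27.3 CPM in endothelial barcodes of the shPgk1 libraries and 38.3, 37.2 and 44.1 CPM in those of the shNC libraries. Its highest value in any other lineage and library was 0.700 CPM. The fitted log2 fold of 7.11 ± 0.22 (edgeR adjusted p = 1.71e-24) is no bound, because some T cell and fibroblast sums held no count. Kif26b had 96.3, 57.5 and 62.1 CPM in fibroblasts of the shPgk1 libraries and 55.6, 69.8 and 93.1 CPM in those of the shNC libraries. In the other lineages it reached at most 8.28 CPM, and the log2 fold was 5.06 ± 0.16 (edgeR adjusted p = 5.09e-20). Groups overlapped within the lineage for both genes.

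In endothelial barcodes, 3 members were called (background 12.5%), the others being Kif17 at 2.30 ± 0.43 and Cenpt at 1.12 ± 0.14. Kif17 is a cargo motor, and its endothelial level ranged from 2.60 to 7.88 CPM. In fibroblasts 3 were called (background 15.7%), Kif26b, Kif1a at 2.45 ± 0.21 and Kif21a at 1.06 ± 0.21. In macrophages 2 were called (background 12.7%), Kif19a at 3.38 ± 0.27 and Kif1a at 2.35 ± 0.18. Kif1a, known as a synaptic vesicle motor of neurons, had 5.26 to 7.44 CPM in macrophages and 4.63 to 10.3 CPM in fibroblasts, ranges that overlap, and at most 2.09 CPM elsewhere. Kif19a, which shortens cilia, had 2.69 to 3.12 CPM in macrophages and at most 1.63 CPM elsewhere. In epithelial barcodes 3 were called (background 11.3%), Kif21a at 2.62 ± 0.14, Cenpv at 2.04 ± 0.10 and Cenpf at 1.11 ± 0.13. Kif21a had 6.54 to 10.5 CPM in epithelial barcodes and 0.573 to 0.908 CPM in macrophages. The pair Kif21a and Kif21b thus had opposite orders in epithelial barcodes and T cells, since Kif21a had 0.219 to 1.40 CPM in T cells. Cenpv had 40.6, 18.6 and 17.2 CPM in epithelial barcodes of the shPgk1 libraries and 18.1, 20.6 and 29.4 CPM in those of the shNC libraries, so shPgk1 library 1 stood high. Where a lineage was instead marked by raw marker counts, with no UMI of another lineage's markers allowed, 3 members in all were called across 4 lineages, against 32 across 5.

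**Figure D3:**
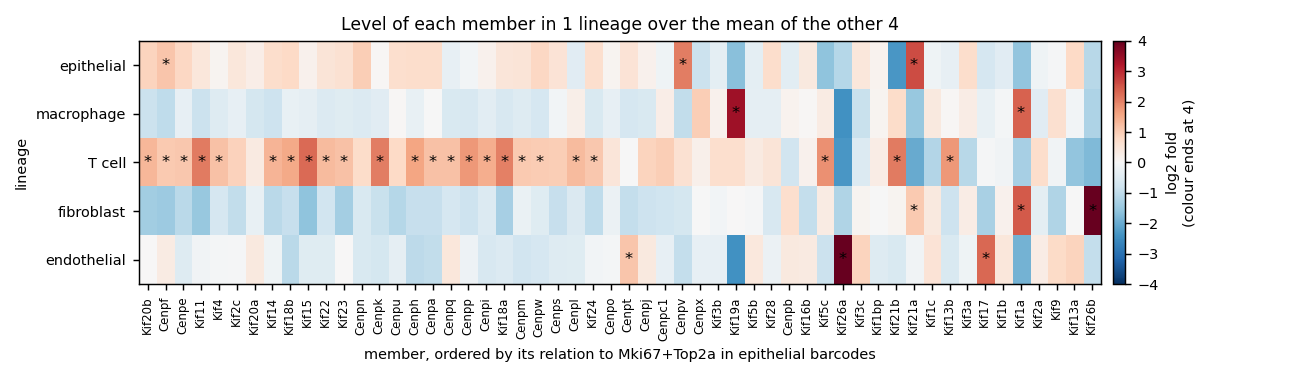
Log2 fold of each tested member (columns, ordered by relation to Mki67 and Top2a) in 1 lineage over the mean of the other 4 (rows), with colour from blue (lower) to red (higher), cut at 4, and a star for members called. The linked members on the left are red in the T cell row, and single dark cells mark Kif26a in endothelial barcodes, Kif26b in fibroblasts and Kif19a in macrophages.

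The share of cycling barcodes was compared at an equal depth of 3000 UMIs per barcode. In macrophages it was 3.61%, 3.69% and 3.70% in the shPgk1 libraries, against 1.72%, 2.72% and 2.42% in the shNC libraries. The shPgk1 libraries were all higher, by 1.38 percentage points (two-sided exact permutation test, p = 0.1, the smallest that 3 against 3 can give). In epithelial barcodes the shares were 6.29%, 4.10% and 5.41% in the shPgk1 libraries and 6.01%, 7.57% and 5.58% in the shNC libraries, and these overlapped (difference −1.12 points, exact permutation p = 0.4). Without thinning the epithelial difference was 2.00 points in the other direction (exact permutation p = 0.2), with median depths of 13158 to 16221 UMIs in the shPgk1 libraries and 9639 to 12229 UMIs in the shNC libraries. The unthinned macrophage shares averaged 21.5% and 15.5%. T cell shares averaged 12.3% ± 1.20 in the shPgk1 libraries and 12.7% ± 1.42 in the shNC libraries (SD, n = 3 each). Thinning left out 123 macrophages of the shPgk1 libraries and 181 of the shNC libraries, and 558 and 484 epithelial barcodes.

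Neutrophils are mature cells that do not divide, and barcodes marked by S100a8, S100a9, Csf3r and Retnlg give a background for these shares. At 3000 UMIs, 4 of 97 such barcodes in the shPgk1 libraries counted as cycling (4.12%, 95% Wilson interval 1.62% to 10.1%) and 4 of 283 in the shNC libraries (1.41%, 0.551% to 3.58%). These were the deepest of 443 and 1026 neutrophil-marked barcodes, since shallower ones were left out, and may not stand for the rest. The intervals pool the barcodes of 3 libraries per group and cover counting error only, not the spread between libraries. Lineage shares were not tested against them. Set against the interval of their own group, macrophage and fibroblast shares at this depth did not lie above it. Nor did the epithelial shares of the shPgk1 libraries, at 4.10% to 6.29%, whereas those of the shNC libraries, at 5.58% to 7.57%, did. T cell shares were 11.3% to 14.1%, above both intervals. The shPgk1 interval rests on 97 barcodes and is wide, so it cannot show whether shares inside it exceed background. Without thinning, 1.13% and 1.85% of neutrophil-marked barcodes counted as cycling, at median depths of 1678 and 1875.5 UMIs. The neutrophil markers themselves were lower in macrophage barcodes of the shPgk1 libraries, at 77.3 to 440 CPM, against 640 to 756 CPM in the shNC libraries. The epithelial markers Krt18, Krt19, Krt7 and Cldn4 were higher there in the shPgk1 libraries, at 241 to 310 CPM, against 164 to 238 CPM. The part of neutrophil or epithelial RNA in the macrophage difference was not tested.

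**Figure D4:**
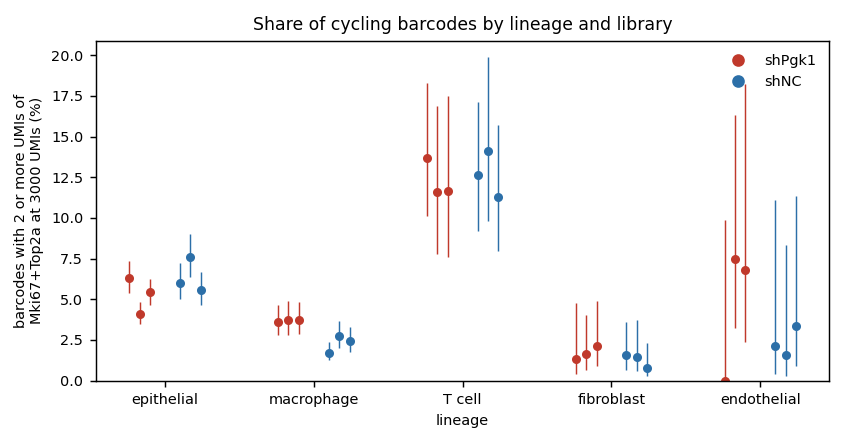
Share of barcodes with at least 2 UMIs of Mki67 and Top2a at 3000 UMIs (y axis, percent) by lineage, with 1 point per library (red for shPgk1, blue for shNC) and its 95% Wilson interval. T cells lie highest, at 11.3% to 14.1%, and the 3 shPgk1 points of macrophages lie above the 3 shNC points and the interval of shNC library 1 overlaps none of theirs.

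Between the groups, a minority of members differed over all kept barcodes. Of 58 members tested, 6 were higher in the shPgk1 libraries (background 9.45%) and 2 were lower (background 7.2%), a share below the 16.7% of all genes called. All 6 that rose were linked members, namely Kif20a, Cenph, Cenps, Cenpa, Kif2c and Cenpm. Kif20a carries the chromosomal passenger complex to the central spindle. It had 9.53, 9.56 and 8.83 CPM in the shPgk1 libraries and 6.02, 7.21 and 6.76 CPM in the shNC libraries, with no overlap and a log2 fold of 0.55 ± 0.10 (SE, edgeR adjusted p = 0.0196). Cenph had 11.1, 9.82 and 9.77 CPM in the shPgk1 libraries and 8.09, 7.38 and 6.98 CPM in the shNC libraries (log2 fold 0.52 ± 0.09). The other folds were 0.46 ± 0.11 for Kif2c, 0.44 ± 0.08 for Cenps, 0.30 ± 0.07 for Cenpa and 0.29 ± 0.07 for Cenpm.

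The 2 members that fell were Kif5c, which was not linked, and Kif6, which had too few counts in epithelial barcodes to be classed. Exons of Kif6 overlap Gm16554 on the opposite strand. Kif5c, a cargo motor best known from neurons, had 1.28, 1.29 and 1.12 CPM in the shPgk1 libraries and 1.78, 2.35 and 1.84 CPM in the shNC libraries (log2 fold −0.62 ± 0.16, edgeR adjusted p = 0.0424). Kif6 had 0.168, 0.222 and 0.112 CPM in the shPgk1 libraries and 0.366, 0.522 and 0.363 CPM in the shNC libraries, from 169 counts in all (log2 fold −1.24 ± 0.32, edgeR adjusted p = 0.0406). Neither overlapped between groups.

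These differences over all barcodes ran beside a difference in cell types, since epithelial barcodes were more frequent in the shPgk1 libraries. The linked members summed to 317, 305 and 311 CPM over all kept barcodes of the shPgk1 libraries, against 261, 284 and 276 CPM in the shNC libraries, without overlap. Within epithelial barcodes the sums were 394, 349 and 356 CPM in the shPgk1 libraries and 356, 401 and 374 CPM in the shNC libraries, which overlapped. Within macrophages they were 187, 197 and 231 CPM in the shPgk1 libraries and 166, 187 and 176 CPM in the shNC libraries. In the sums over all kept barcodes alone, more cells of a type and more RNA per cell cannot be told apart. The part of each was not tested. The count of 8 rested on single libraries. It was 14 without shPgk1 library 1, 0 without shPgk1 library 2 or 3, 4 without shNC library 1 or 3, and 0 without shNC library 2. DESeq2 called 15, with 11 higher and 4 lower, and its share over all genes was not counted. Scaling by total counts alone, chosen after the data were seen, left 3 higher and 3 lower. All genes called went from 1844 higher and 1406 lower to 1090 higher and 1940 lower under that scaling.

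Within epithelial barcodes 2 of 56 members were called (background 6.61%, with 2.67% of all genes higher and 3.94% lower). Kif24 fell and Kif20a rose. Kif24 had 3.52, 2.79 and 3.09 CPM in the shPgk1 libraries and 5.69, 6.76 and 5.78 CPM in the shNC libraries, without overlap, and its log2 fold was −0.83 ± 0.14 (edgeR adjusted p = 0.0243). The difference was present in both kinds of barcode. In cycling epithelial barcodes Kif24 had 4.01, 4.16 and 4.73 CPM in the shPgk1 libraries and 8.06, 9.29 and 9.55 CPM in the shNC libraries, and in barcodes at 0 it had 2.94, 1.54 and 2.14 CPM against 4.30, 5.12 and 3.67 CPM. In macrophages it had 1.81, 1.49 and 2.15 CPM in the shPgk1 libraries and 2.05, 1.65 and 2.40 CPM in the shNC libraries, which overlapped. The difference between the epithelial and the macrophage fold did not pass the test (−0.64 ± 0.23, edgeR adjusted p = 0.165).

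Kif20a had 12.8, 11.3 and 10.5 CPM in epithelial barcodes of the shPgk1 libraries and 8.54, 9.36 and 8.60 CPM in those of the shNC libraries, without overlap (log2 fold 0.51 ± 0.10, edgeR adjusted p = 0.0335). Under the raw marker rule the fold was 0.13 and no longer passed (edgeR adjusted p = 0.841). In cycling epithelial barcodes it had 24.2, 25.3 and 23.7 CPM in the shPgk1 libraries and 18.03, 20.8 and 18.2 CPM in the shNC libraries. In barcodes at 0 the groups overlapped, at 3.35, 2.19 and 2.30 CPM in the shPgk1 libraries and 2.87, 2.43 and 3.39 CPM in the shNC libraries. Exons of Kif20a overlap Cdc23 on the opposite strand, and Cdc23 itself had a log2 fold of 0.00 ± 0.12 in epithelial barcodes (edgeR adjusted p = 0.992).

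Tested in cycling epithelial barcodes alone, the same 2 of 55 members were called (background 4%, with 1.7% higher and 2.3% lower), Kif24 at −0.90 ± 0.16 and Kif20a at 0.51 ± 0.11. Scaling by total counts moved the median of all genes in epithelial barcodes by −0.13 on the log2 scale. All genes called there went from 432 higher and 639 lower to 124 higher and 1525 lower. The members called went from 1 higher and 1 lower to 0 higher and 2 lower. Kif24 was then at −0.96 (edgeR adjusted p = 0.0129) and Kif20a at 0.38 (edgeR adjusted p = 0.0556). The epithelial count was 7 without shNC library 1, 5 without shPgk1 library 1, 1 without shNC library 3, and 0 without shNC library 2, shPgk1 library 2 or shPgk1 library 3. The count in cycling epithelial barcodes was 8, 1 and 0 without shNC libraries 1, 3 and 2, and 0 without shPgk1 library 2 or 3.

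In macrophages none of 56 members passed the threshold (background 0.368%, with 0.0263% higher and 0.342% lower), with 10 at an unadjusted p under 0.05, where 16.1% of all genes stood, and 2 called by DESeq2. The linked members had a median log2 fold of 0.22 and 21 of 25 were above 0, against a median of 0.00 over all genes tested. Kif4 had the smallest p among the linked members (0.54 ± 0.16, edgeR adjusted p = 0.173). In epithelial barcodes the linked members had a median of −0.07 and 12 of 25 were above 0, against a median of −0.03 over all genes. Under total-count scaling the linked members had a median of −0.20 with 8 above 0, against −0.16 over all genes. In macrophages that scaling gave the linked members a median of 0.29 with 22 above 0, against 0.06 over all genes. None of 57 members passed the test of the difference between both lineages (background 2.72%, with 0.335% higher and 2.38% lower), although 16 had an unadjusted p under 0.05, 14 of them negative, against 16.5% of all genes at that level, and none was called by DESeq2. Kif4 was at −0.58 ± 0.18 (edgeR adjusted p = 0.09). In cycling macrophages none of 51 was called (background 0.283%, with 0.0162% higher and 0.267% lower), with 7 at an unadjusted p under 0.05, against 9.87% of all genes, and 0 by DESeq2.

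No member was called in the smaller lineages. The counts were 0 of 46 in T cells (background 0.197%, with 0.0359% higher and 0.161% lower), 0 of 41 in fibroblasts (background 0.0329%) and 0 of 22 in endothelial barcodes (background 0), with 0, 3 and 0 at an unadjusted p under 0.05 and 0 by DESeq2 in each. Of all genes tested, 9.74%, 8.93% and 5.40% stood at that unadjusted level. In T cells the linked members had a median log2 fold of 0.01, and Kif20a was at 0.17 ± 0.26, an interval of −0.36 to 0.70 at 2 SE that includes its fold over all barcodes.

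**Figure D5:**
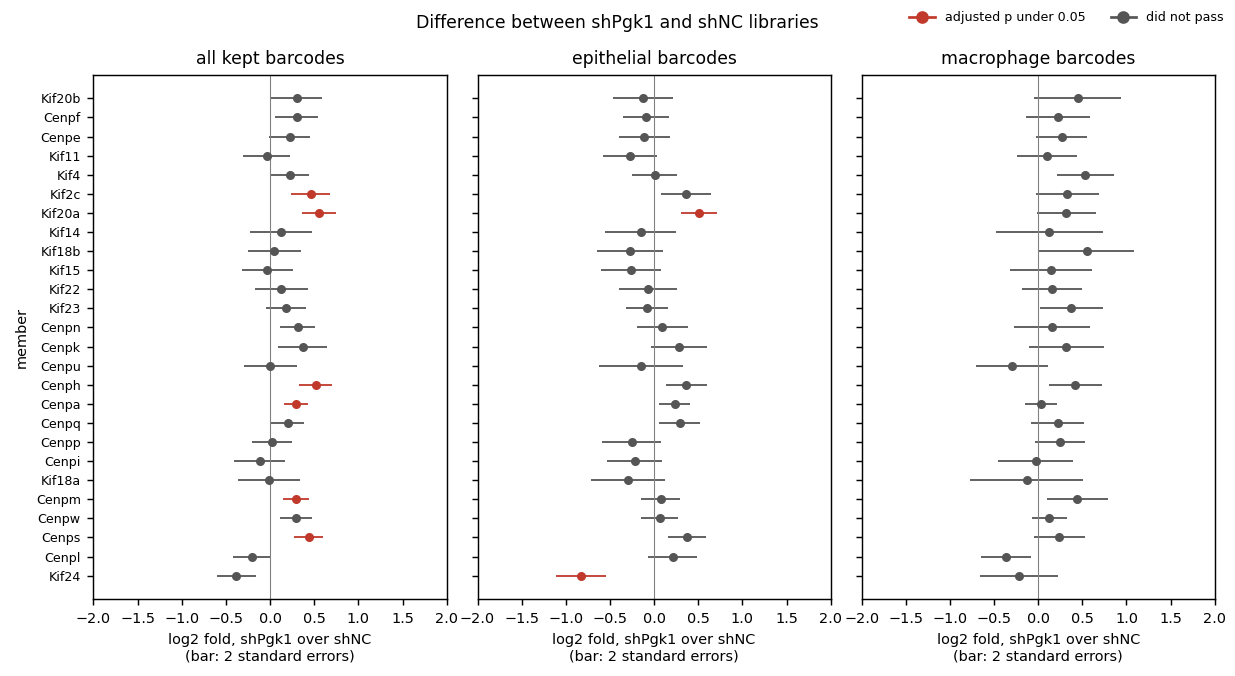
Log2 fold of shPgk1 over shNC libraries (x axis, bars of 2 standard errors) for the 25 linked members and Kif24 (y axis) in all kept, epithelial and macrophage barcodes. Red marks an adjusted p under 0.05. The 6 red members on the left lie between 0.29 and 0.55, and in epithelial barcodes only Kif20a, to the right of 0, and Kif24, to the left, are red.

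Partners of these proteins were read from fixed lists. Over all kept barcodes 9.45% of all genes tested were called higher and 7.2% lower. Over all kept barcodes, genes of the outer kinetochore rose in 4 of 10 cases, with Zwint at 0.49 ± 0.10, Pmf1 at 0.27 ± 0.07 and Ndc80 at 0.39 ± 0.11. Chromosomal passenger and shugoshin genes rose in 4 of 6, with Birc5 (survivin) at 0.53 ± 0.06, Aurkb at 0.43 ± 0.08 and Sgo1 at 0.57 ± 0.12. Genes that load or escort the centromeric histone rose in 2 of 7, Rbbp7 and Npm1, at 0.62 ± 0.08 and 0.66 ± 0.11, and both also act outside centromeres. Spindle checkpoint genes rose in 3 of 8 (Mad2l1 at 0.52 ± 0.08, Cdc20, Bub3), and spindle proteins in 3 of 10 (Plk1, Ckap2, Aurka). Of 10 kinesin cargo partners, Kifap3 and Mapk8ip1 rose, at 0.43 ± 0.06 and 0.75 ± 0.14, and Trak1, an adaptor for mitochondria, fell, at −0.32 ± 0.07. Medians of these 6 lists lay between −0.05 and 0.39, against −0.05 over all genes tested. The phase genes moved with them, since 5 of 5 G2/M genes rose (median 0.44) and 5 of 6 S phase genes (median 0.47). Their part in the partner lists was not tested.

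In epithelial barcodes fewer of these genes passed the test, and of all genes tested there 2.67% were called higher and 3.94% lower. The counts were 1 of 10 (Mis12), 1 of 6 (Birc5 at 0.41 ± 0.09), 2 of 7 (Rbbp7, Mis18a), 1 of 8 (Mad2l1 at 0.47 ± 0.11), 0 of 10 spindle proteins and 1 of 10 cargo partners (Mapk8ip1 at 0.68 ± 0.14). None of the 5 G2/M genes passed, against 4 of the 6 S phase genes (Pcna at 0.43 ± 0.09, Mcm6, Mcm5, Gins2). In macrophages none passed in any of these lists, where only 0.0263% of all genes tested were called higher and 0.342% lower. The Hspa1a and Hspa1b heat shock genes, read as a sign of handling stress, fell over all barcodes at −1.91 ± 0.40 and −0.95 ± 0.26 (edgeR adjusted p = 0.0281 and 0.0489), while Fos rose at 0.49 ± 0.10. Their part in the differences of the members was not tested.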

How the data were processed

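UMI counts per gene and barcode were deposited by the authors as 1 matrix per library. They were made with PISA 0.12, per the file headers, and Seurat 4 is named in the submitters' processing notes. Those notes also name GRCh38 and hg38, although the gene names are mouse names. No source used here names the aligner, the mouse annotation or the strand setting.

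A minimum of 500 UMIs and of 300 genes and a maximum of 20% mitochondrial UMIs per barcode removed 643 barcodes. Doublets were scored with Scrublet in scanpy 1.11.5 (expected rate 0.06), and 825 barcodes above a score of 0.25 were left out, since the automatic limit marked 1 barcode or none in 4 libraries. A barcode was marked for a lineage where its marker UMIs exceeded free RNA, taken as 20% of the library's level at its depth (Poisson tail p under 0.01), and kept for that lineage where no other passed. A neutrophil mark, added after the data were seen, used the same rule.

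Counts were summed per library and lineage and tested with edgeR 4.0.16 in R 4.3.3 (robust quasi-likelihood, TMM, filterByExpr), adjusted by Benjamini-Hochberg over all genes tested, with a threshold of 0.05. Members that passed the filter on low counts had to be expressed in enough libraries, so 2 members were not tested over all barcodes. CPM are counts scaled to the total of the same sum. Log2 folds are shPgk1 over shNC. Shares were compared by exact permutation tests at 3000 UMIs per barcode. The fits were tested on simulated counts. Alternatives were DESeq2 1.42.0, RLE factors, no filter, a replicate block, doublets kept, a raw marker rule, other limits, leaving out each library, and total-count scaling, the last added after the data were seen.

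Samples were grouped by their titles. The labels do not say whether libraries of 1 group are separate animals or cultures. The p-values therefore reflect the spread of these 6 libraries, which may be technical. Genes with values in the text were all members called between groups, up to 4 per lineage with the largest fold, the 8 highest, 4 lowest and the 3 on each side of the limit for the relation to Mki67 and Top2a, up to 3 per pathway list with the smallest p, and Pgk1. Other members given beside these were chosen after their values were seen. The members, lists and tests were chosen with earlier results of these data known.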

Additional observations from a re-analysis of the deposited data

How the results depend on the processing

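The count of linked epithelial members was 17 to 27 under all alternatives and 25 without any 1 library. Counts of members called between groups were less stable. Shares of all genes called were not counted for DESeq2, no filter, the raw marker rule or the fits without 1 library. DESeq2 gave 15 over all kept barcodes, 6 in epithelial barcodes and 2 in macrophages. With no filter on low counts there were 7 in epithelial barcodes, 5 in cycling epithelial barcodes, 3 in cycling macrophages and 3 for the difference between lineages. The raw marker rule gave 0 in cycling epithelial barcodes, where Kif20a was at −0.28 (edgeR adjusted p = 0.77). Leaving out 1 library at a time gave 0 to 14 over all kept barcodes, 0 to 7 in epithelial barcodes, 0 to 8 in cycling epithelial barcodes, 0 to 2 in macrophages and 0 to 7 for the difference between lineages. The 32 members that differed between lineages became 16 without barcodes holding Mki67 or Top2a UMIs and 3 under the raw marker rule, which was run over 4 lineages since endothelial barcodes were too few, and were 30 to 35 without 1 library. The share difference in macrophages was 5.99 points without thinning, 2.65 points at 6000 UMIs and 2.89 points with a limit of 1 UMI, and 1.10 to 1.60 points without 1 library. In epithelial barcodes it was 2.00 points without thinning and −1.63 to −0.53 points without 1 library. The cause was not tested.

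Same-numbered libraries did not pair: the correlations of their deviations over all kept barcodes were 0.11, 0.06 and −0.04. With the replicate number as a block, 6 members were called over all kept barcodes and 2 in epithelial barcodes, and the other lineages stayed at 0. Of 149 fold values of called members under alternatives, 60 no longer passed the threshold and 1 changed sign, that of Kif20a above. The fold of Pgk1, called in no main comparison, changed sign in 11 of 103 values. The fold of Kif24 in epithelial barcodes ranged from −1.10 to −0.75 and that of Kif20a from 0.13, under the raw marker rule, to 0.56.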
